A study of Arabidopsis thaliana with 51 samples.

Results

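NAC transcription factors were sought on the arrays by gene symbol, and a single gene, NAC014, met the rule. The rule took probe sets paired with exactly 1 gene whose symbol begins with a family prefix (NAC or its form with a leading A, ATAF, VND, NTL or the cup-shaped cotyledon symbol) and a digit, and asked for a log2 value of 5 or more on at least 3 arrays. NAC014 (locus AT1G33060) is 1 of 7787 named genes that reached that level. By the same pattern of symbols RefSeq names 90 Arabidopsis genes, of which only NAC014 is in the annotation table, so the values below describe 1 gene and not the family, and the other NAC genes are not analysed here.

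NAC proteins are transcription factors found only in plants. They bind DNA through a conserved domain near the amino terminus, while the carboxy-terminal part differs between members and regulates transcription. Members are known for organ boundaries, xylem and secondary walls, leaf senescence and responses to stress. NAC014, also called NTL2, belongs to the members with a predicted transmembrane helix near the carboxy terminus. Such factors are held at a membrane and act in the nucleus once released, so a transcript level does not show how much active protein there is.

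Whole Arabidopsis thaliana seedlings were grown on agar for 5 to 6 days and in liquid medium for another 5 to 6 days, in 12 h of light and 12 h of dark. Seedlings given 1 µM of a peptide were sampled 2 h or 10 h later, and untreated seedlings stand as 0 h. The lines were ein2-1, with a block in ethylene signalling, efr-1, without the receptor kinase for elf18, pepr1-1 pepr2-3, without both receptor kinases for Pep2, bak1-3, affected in a co-receptor kinase, and wild type (WT). The peptide elf18 is a fragment of a bacterial elongation factor and Pep2 is a plant danger peptide. Each of the 17 groups holds 3 arrays: ein2 at 0 h, 2 h and 10 h of elf18 and 2 h of Pep2, efr at 0 h and 10 h of elf18, pepr1 pepr2 and bak1 each at 0 h, 2 h and 10 h of Pep2, and WT at 0 h and at both times of both peptides. Every mutant had its own 0 h group. No untreated seedlings were sampled at 2 h or 10 h, so elapsed time and peptide cannot be told apart within a line.

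The 51 arrays had medians of 6.04 to 6.16 on the log2 scale, and arrays of 1 group correlated at 0.977 or more. EFR stood at 2.20 ± 0.07 (SD, n = 3) in untreated efr and 3.22 ± 0.32 in untreated WT, and after 10 h of elf18 at 2.17 ± 0.01 in efr and 6.94 ± 0.19 in WT. The receptor transcript was thus at the low end in the line labelled efr. Of 10 marker genes of green shoot and root, 4 have a measured and named probe set. LHCB4.2, a light-harvesting gene of green tissue, had group means of 9.58 to 14.18, and the root-expressed genes PYK10, AT4G26010 and EXPA7 had 14.04 to 14.77, 9.50 to 10.84 and 5.62 to 7.11. Both parts of the seedling were thus represented. Precision is set by having 3 arrays in a group.

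NAC014 was present at a moderate and narrow range of levels in all groups. Over the 51 arrays its log2 level ran from 5.43 to 6.82 with a median of 6.21. The 17 group means spanned 1.07, from 5.55 ± 0.02 (SD, n = 3) in ein2 after 10 h of elf18 to 6.62 ± 0.09 in bak1 after 10 h of Pep2. In decreasing order, bak1 at 10 h of Pep2 was followed by efr at 0 h (6.55 ± 0.24), pepr1 pepr2 at 2 h of Pep2 (6.53 ± 0.05), WT at 10 h of Pep2 (6.45 ± 0.25), pepr1 pepr2 at 0 h (6.44 ± 0.19) and at 10 h of Pep2 (6.31 ± 0.02), and ein2 at 0 h (6.27 ± 0.22). Then came efr at 10 h of elf18 (6.23 ± 0.44), WT at 0 h (6.21 ± 0.15), bak1 at 0 h (6.20 ± 0.20), ein2 at 2 h of elf18 (6.13 ± 0.13), and WT at 2 h of elf18 and ein2 at 2 h of Pep2, both at 6.01, with SDs of 0.04 and 0.43. At the low end stood bak1 at 2 h of Pep2 (5.79 ± 0.23), WT at 10 h of elf18 (5.70 ± 0.09), WT at 2 h of Pep2 (5.64 ± 0.20) and ein2 at 10 h of elf18. The largest gap between neighbours in this order was 0.22, and sorting itself makes such gaps small. A difference between 2 groups of 3 arrays carries a 95% interval of ± 0.35 in the limma fit, so the order of neighbours is not settled.

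**Figure D1:**
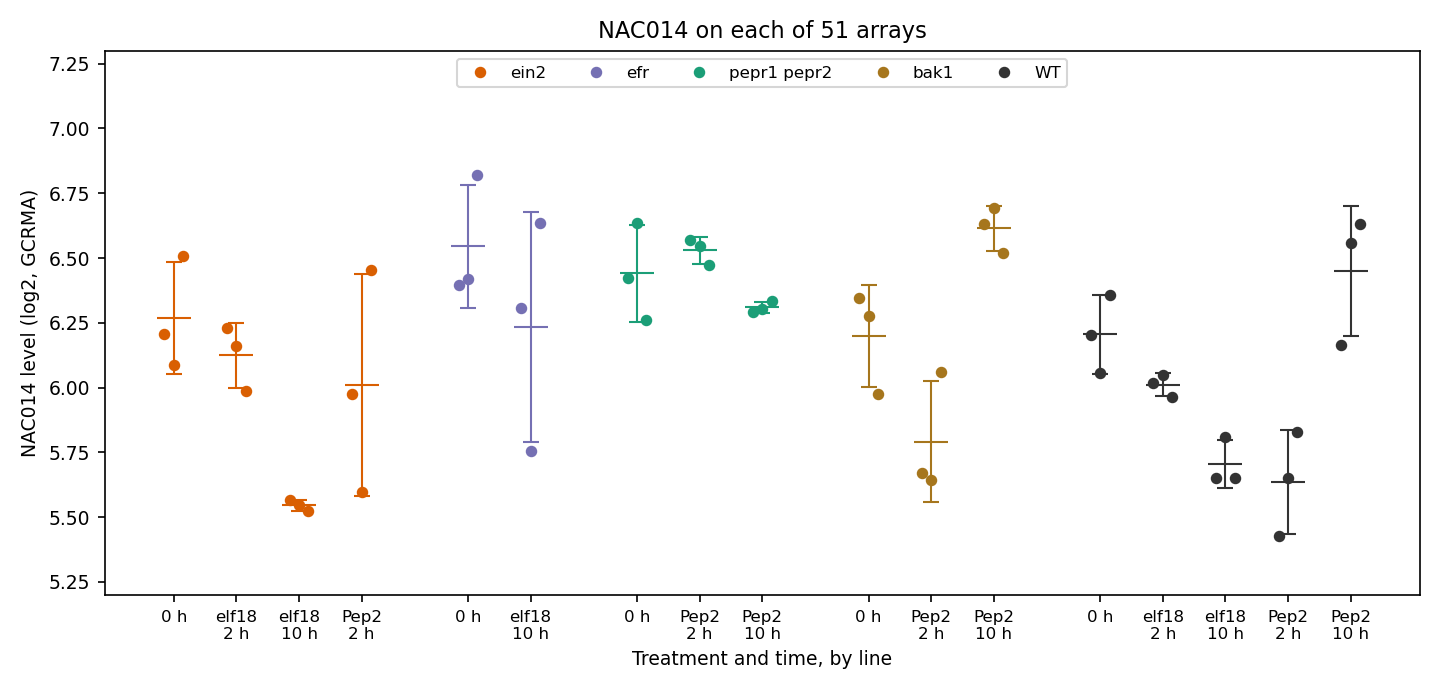
NAC014 level (log2, vertical axis) on each of 51 arrays by line, treatment and time (horizontal axis). Points are arrays, and bars are the mean ± SD of 3 arrays. The lowest group is ein2 at 10 h of elf18 (5.55 ± 0.02) and the highest is bak1 at 10 h of Pep2 (6.62 ± 0.09).

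Each group was set against its reference in 26 comparisons: 12 responses to a peptide against 0 h of the same line, 8 differences between a mutant and the WT response (interactions), 4 differences between untreated mutant and untreated WT, and 2 between peptides in WT. Calls required both a 2-fold difference or more and an adjusted p below 0.05. By this rule NAC014 was called in 0 of 26 comparisons, by limma with Benjamini-Hochberg adjustment. Its adjusted p was under 0.05 at a smaller difference in 7, lower in 5 and higher in 2, and its unadjusted p was under 0.05 in 8. In 23 comparisons the 95% interval lay wholly within a 2-fold difference. The 3 that reached past it were the ein2 response at 10 h of elf18, the pepr1 pepr2 interaction at 2 h of Pep2, and elf18 against Pep2 at 10 h.

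**Figure D2:**
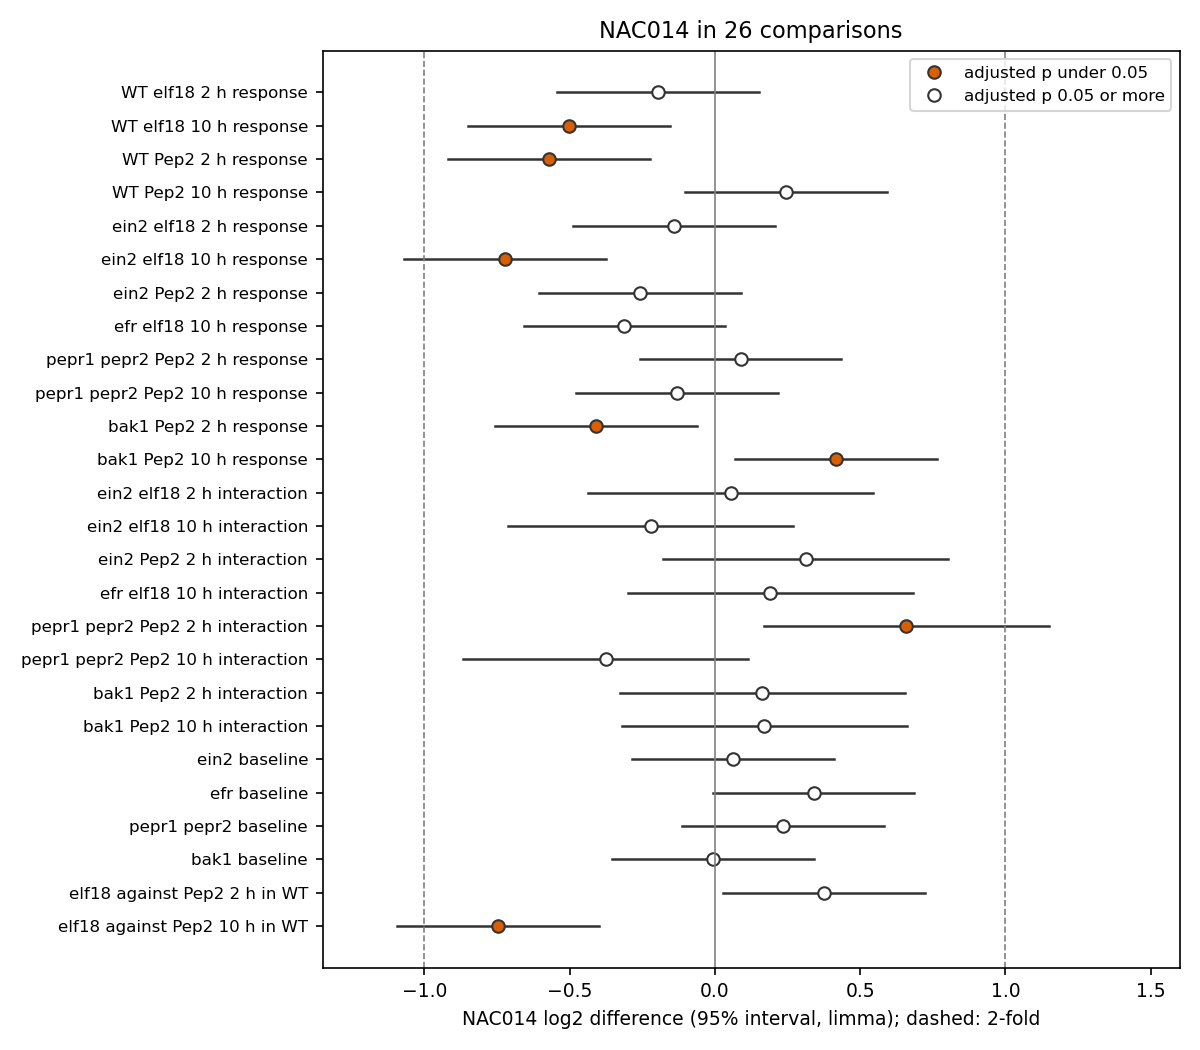
NAC014 log2 difference (horizontal axis) with its 95% interval in 26 comparisons (vertical axis). Filled points have an adjusted p under 0.05, and dashed lines mark a 2-fold difference. All points lie between the dashed lines, from -0.75 for elf18 against Pep2 at 10 h to 0.66 for the pepr1 pepr2 interaction at 2 h of Pep2.

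After 2 h of Pep2, NAC014 was lower in WT. The levels were 5.43, 5.65 and 5.83 in treated WT, against 6.20, 6.06 and 6.36 at 0 h. All treated arrays lay below all untreated ones, as for 36.6% of the 14568 probe sets tested. The difference was -0.57 (SE 0.171, 95% interval -0.92 to -0.22, adjusted p = 0.00455), which leaves 67.3% of the untreated level. Of all probe sets, 34.1% were lower with an adjusted p under 0.05 at any fold, and 21.1% were called. From bulk tissue, fewer cells with the transcript and less transcript per cell cannot be told apart.

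Without the Pep2 receptors the same treatment left NAC014 near its untreated level. In pepr1 pepr2 the levels were 6.57, 6.55 and 6.47 after 2 h of Pep2, against 6.42, 6.64 and 6.26 at 0 h. These groups overlapped, and the difference was 0.09 (SE 0.171, 95% interval -0.26 to 0.44, adjusted p = 0.771), in a comparison where 3.53% of probe sets were called. Set against the WT response, the pepr1 pepr2 response was higher by 0.66 (SE 0.242, 95% interval 0.17 to 1.15, adjusted p = 0.0233). Of all probe sets, 28.6% had a higher response in the mutant with an adjusted p under 0.05 at any fold and 23.1% were called in either direction. This interaction did not pass without 1 of 3 arrays: the adjusted p was 0.0639 without WT replicate 3 at 0 h, 0.0655 without pepr1 pepr2 replicate 3 at 0 h and 0.0729 without WT replicate 1 at 2 h of Pep2.

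At 2 h of Pep2 the bak1 mean was also below its 0 h mean. In bak1 the levels were 5.67, 5.64 and 6.06 after treatment, against 6.35, 6.27 and 5.98 at 0 h, and the groups overlapped through the third array of each. The difference was -0.41 (SE 0.171, adjusted p = 0.0428). Of all probe sets, 32.9% were lower with an adjusted p under 0.05, and 19.9% were called. Leaving out any 1 of 4 arrays (replicates 1 and 2 of either group) raised the adjusted p to between 0.113 and 0.151.

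In ein2 the treated levels were 5.97, 5.60 and 6.45, against 6.21, 6.09 and 6.51 at 0 h. The groups overlapped, although each treated array lay below the untreated array of the same replicate number. The difference was -0.26 (SE 0.171, adjusted p = 0.203), where 20.6% of probe sets were called. This value depends on single arrays. Without replicate 3 of the treated ein2 group the difference was -0.48 with an adjusted p of 0.0215, and leaving out another array moved it as far as -0.05. Neither line differed detectably from WT in its response. The interaction was 0.16 (95% interval -0.33 to 0.65, adjusted p = 0.843) for bak1 and 0.31 (95% interval -0.18 to 0.80, adjusted p = 0.454) for ein2, with 0.645% and 2.62% of probe sets called.

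At 10 h of Pep2 the WT mean was not below that at 0 h. WT stood at 6.16, 6.56 and 6.63, against 6.20, 6.06 and 6.36 at 0 h, and the groups overlapped. The difference from 0 h was 0.25 (SE 0.171, 95% interval -0.10 to 0.59, adjusted p = 0.235), where 17.4% of probe sets were called. In bak1 the levels were 6.63, 6.69 and 6.52 at 10 h, against 6.35, 6.27 and 5.98 at 0 h, with all treated arrays above all untreated ones, as for 37.0% of probe sets. The bak1 difference was 0.42 (SE 0.171, adjusted p = 0.0296), while 34.7% of probe sets were higher with an adjusted p under 0.05 and 32.0% were called. It did not pass without bak1 replicate 3 at 0 h (adjusted p = 0.155) or without replicate 1 or 2 at 10 h (adjusted p = 0.0629 and 0.0831).

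In pepr1 pepr2 at 10 h of Pep2 the levels were 6.29, 6.30 and 6.33, against 6.42, 6.64 and 6.26 at 0 h. The groups overlapped, with a difference of -0.13 (SE 0.171, adjusted p = 0.559), where 14.8% of probe sets were called. Against WT, the interactions at 10 h were -0.38 (95% interval -0.87 to 0.12, adjusted p = 0.274) for pepr1 pepr2 and 0.17 (95% interval -0.32 to 0.66, adjusted p = 0.622) for bak1, with 8.61% and 15.0% of probe sets called. Neither passed.

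The return between 2 h and 10 h of Pep2 was also tested directly, in contrasts added after the values were seen. In WT the level at 10 h was higher than at 2 h by 0.82 (SE 0.171, adjusted p = 0.000106), and no array at 2 h reached the lowest one at 10 h. Of all probe sets 30.2% were higher with an adjusted p under 0.05, and 32.1% had their arrays apart in this direction. In bak1 the difference was likewise 0.82 (SE 0.171, adjusted p = 8.09e-05), with shares of 31.6% and 34.5%, and its arrays were apart too. In pepr1 pepr2 it was -0.22 (SE 0.171, adjusted p = 0.348). There the arrays at 10 h all lay below those at 2 h, as for 20.5% of probe sets.

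**Figure D3:**
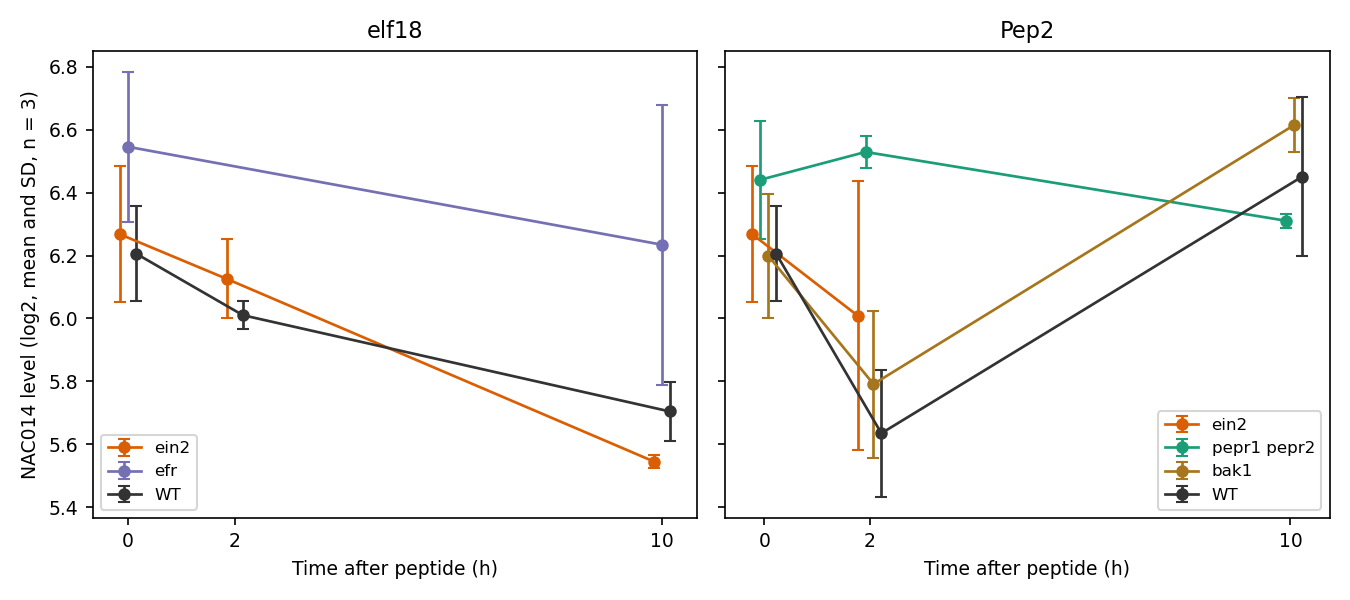
NAC014 level (log2, vertical axis) against time after elf18 (left) or Pep2 (right) in h (horizontal axis). Points are means of 3 arrays, bars are SDs and lines join the groups of a line. With Pep2, WT and bak1 dip to 5.64 and 5.79 at 2 h and stand at 6.45 and 6.62 at 10 h, while pepr1 pepr2 stays between 6.31 and 6.53.

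With elf18, both WT means after treatment were below that at 0 h, and the difference passed at 10 h but not at 2 h. At 2 h of elf18 WT stood at 6.02, 6.05 and 5.96, against 6.20, 6.06 and 6.36 at 0 h. All treated arrays lay below all untreated ones, as for 29.5% of probe sets, but the difference was only -0.20 (SE 0.171, 95% interval -0.54 to 0.15, adjusted p = 0.36), where 14.5% of probe sets were called. In ein2 at 2 h of elf18 the levels were 6.23, 6.16 and 5.99, against 6.21, 6.09 and 6.51 at 0 h. The groups overlapped, with a difference of -0.14 (SE 0.171, adjusted p = 0.52), where 15.9% were called.

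At 10 h of elf18 WT stood at 5.65, 5.81 and 5.65, against 6.20, 6.06 and 6.36 at 0 h, and again the groups were apart. The difference was -0.50 (SE 0.171, 95% interval -0.85 to -0.15, adjusted p = 0.0102), 70.6% of the untreated level. Shares over all probe sets were 38.3% with arrays apart downward, 35.2% lower with an adjusted p under 0.05, and 26.9% called. The WT result did not pass without replicate 3 at 0 h (difference -0.43, adjusted p = 0.0534).

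In ein2 the levels at 10 h of elf18 were 5.57, 5.55 and 5.52, against 6.21, 6.09 and 6.51 at 0 h, with no overlap. This was the lowest group of the study, and its difference of -0.72 (SE 0.171, 95% interval -1.07 to -0.37, adjusted p = 0.000371) leaves 60.6% of the untreated level. Here 38.3% of probe sets had arrays apart downward, 36.1% were lower with an adjusted p under 0.05, and 25.4% were called. Between 2 h and 10 h of elf18 the difference was -0.58 (SE 0.171, adjusted p = 0.00613) in ein2 and -0.31 (SE 0.171, adjusted p = 0.142) in WT, in contrasts added after the values were seen. In both lines the arrays at 10 h lay below those at 2 h, as for 28.1% of probe sets in ein2 and 29.4% in WT, and 22.6% were lower in ein2 with an adjusted p under 0.05. When only the WT groups were fitted, the WT difference passed, with an adjusted p of 0.0305.

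The efr line was sampled at 10 h of elf18 and varied widely there. Its levels were 6.31, 5.76 and 6.64, against 6.40, 6.42 and 6.82 at 0 h. The groups overlapped, with a difference of -0.31 (SE 0.171, 95% interval -0.66 to 0.04, adjusted p = 0.132), where 15.2% of probe sets were called. Its response was higher than that of WT by 0.19 (SE 0.242, 95% interval -0.30 to 0.68, adjusted p = 0.531), in a comparison where 27.3% of probe sets were called. Unlike the interaction of pepr1 pepr2 at 2 h of Pep2, this one did not pass, and the 2 interactions were not tested against each other. Without replicate 3 of treated efr the response of efr was -0.51 with an adjusted p of 0.0188, and the interaction was -0.01. Leaving out another array moved them as far the other way as -0.07 for the response and 0.43 for the interaction.

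The ein2 interactions with elf18 were small as well, at 0.05 (95% interval -0.44 to 0.54, adjusted p = 0.964) at 2 h and -0.22 (95% interval -0.71 to 0.27, adjusted p = 0.59) at 10 h. Of all probe sets 1.37% and 4.52% were called there.

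The peptides themselves differed at 10 h in WT. NAC014 stood at 5.65, 5.81 and 5.65 with elf18, against 6.16, 6.56 and 6.63 with Pep2. All arrays with elf18 were lower, as for 29.7% of probe sets, and the difference was -0.75 (SE 0.171, 95% interval -1.09 to -0.40, adjusted p = 0.000398), or 59.6% of the level with Pep2. Of all probe sets, 25.4% were lower with elf18 with an adjusted p under 0.05, and 15.1% were called in either direction. At 2 h the arrays lay the other way round, at 6.02, 6.05 and 5.96 with elf18, against 5.43, 5.65 and 5.83 with Pep2, as for 21.4% of probe sets. The difference there was 0.38 (SE 0.171, 95% interval 0.03 to 0.72, adjusted p = 0.112) and did not pass, while 7.91% of probe sets were called.

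Before treatment the lines did not differ detectably. Untreated efr had 6.40, 6.42 and 6.82, against 6.20, 6.06 and 6.36 in WT, with all efr arrays above all WT arrays, as for 6.52% of probe sets. The difference was 0.34 (SE 0.171, 95% interval -0.01 to 0.69, adjusted p = 0.444). Untreated pepr1 pepr2, ein2 and bak1 overlapped with WT, at differences of 0.23, 0.06 and -0.01 (SE 0.171 each), with adjusted p values of 1, 0.875 and 1. The shares of probe sets called were 0.0824% for efr, 0.0824% for pepr1 pepr2, 4.53% for ein2 and 0.0686% for bak1.

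The spread of NAC014 between arrays of a group was ordinary. Its residual SD was 0.21, where the median over all probe sets tested was 0.19 and 62.1% had a smaller one. None of its differences reached 2-fold, but many probe sets moved less. At 2 h of Pep2 in WT 38.9% of probe sets had a larger change in either direction, at 10 h of elf18 52.9%, and for elf18 against Pep2 at 10 h 23.2%. LHCB4.2, the only green tissue marker measured, fell at 10 h in every line: by changes of -4.56 in WT, -2.21 in ein2 and -2.98 in efr with elf18, and -3.68 in WT, -3.94 in bak1 and -3.42 in pepr1 pepr2 with Pep2. The 3 root genes PYK10, AT4G26010 and EXPA7 differed by -0.44 to 0.28 in WT at that time and none was called. In bak1 at 10 h of Pep2, the group with the highest NAC014 level, EXPA7 and AT4G26010 fell by changes of -1.40 and -1.24 (SE 0.235 and 0.241), PYK10 differed by -0.38, and the AT4G26010 interaction was called at -1.52. At 10 h of elf18 the LHCB4.2 interaction was called in ein2 (2.35) and efr (1.58). Untreated ein2 differed from WT by -0.89 in AT4G26010 and 0.40 in PYK10 (adjusted p = 0.00882 and 0.0248 in limma), neither called. Its differences in EXPA7 (-0.62) and LHCB4.2 (-0.50) did not pass. At 2 h of Pep2 in WT, LHCB4.2 differed by -0.53 and the root genes by -0.18 to -0.06. The part of these shifts in the NAC014 values was not tested.

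Genes reported to act downstream of NAC factors in Arabidopsis were listed as companions, although none is listed for NAC014 itself. Of 23 such genes, 3 have a named probe set and 2 were measured. AT2G21640, a mitochondrial stress marker tied to the tail-anchored factors NAC013 and NAC017, fell at both times of both peptides in WT, by changes of -1.52 and -2.73 at 2 h and 10 h of elf18 and -1.32 and -2.84 at 2 h and 10 h of Pep2. In the receptor mutants it fell too, by changes of -1.82 in efr at 10 h of elf18 and -0.83 and -2.72 in pepr1 pepr2 at 2 h and 10 h of Pep2. It had no called interaction with any mutant. COR47, which encodes a dehydrin induced by cold and drought, was lower by a difference of -0.70 (SE 0.167, adjusted p = 0.000508) at 2 h of Pep2 in WT and was called in no WT response. It stood at 12.12 ± 0.18 (SD, n = 3) in pepr1 pepr2 and 11.17 ± 0.18 in WT at 2 h of Pep2, and its interaction there was called, at 1.11 (SE 0.236, adjusted p = 0.000184). With elf18 in WT, COR47 was higher at both times, by 0.68 at 2 h (adjusted p = 0.00083) and 0.63 at 10 h (adjusted p = 0.00114; SE 0.167 each), where NAC014 differed by -0.20 and -0.50.

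The genes whose pattern was most like that of NAC014 were found over the 17 group means by Pearson's r among 7786 other named genes. The choice to look was made after the values of NAC014 were seen. AT4G02210 had the highest r, 0.895, followed by AT5G54630 (0.866), AT1G11700 (0.86) and AT5G21060 (0.854). AT1G11700 and AT5G54630 had far larger changes, of -1.92 and -1.38 at 2 h of Pep2 and -2.37 and -2.35 at 10 h of elf18 in WT, and interactions of 1.45 and 1.25 in pepr1 pepr2 at 2 h. AT4G02210 and AT5G21060 had changes of -0.24 and -0.25 (SE 0.159 and 0.0999) at 2 h of Pep2 in WT. Their interactions in pepr1 pepr2 at 2 h were 0.21 and 0.14 (SE 0.224 and 0.141). The most opposite patterns were those of AT5G66490 (r = -0.876) and AT4G30060 (r = -0.871). An r of 0.8 or more was found for 47 genes and an r of -0.8 or less for 29. With so many genes compared over so few groups, these values describe the arrays and carry no test.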

How the data were processed

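Affymetrix ATH1 arrays measured RNA from whole seedlings, with 17 groups of 3 replicates that the design text calls biological. The authors deposited log2 probe-set values made with GCRMA, per the submitters' processing notes, which corrects the background and normalises quantiles. Its version and any filter are not given in the sources used here. The table holds 22810 probe sets, 64 of them controls. The annotation pairs 13513 with 1 gene, 503 with several and 8730 others with none. No genome build is given, so no positions are printed.

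Probe sets other than controls with log2 5 or more on at least 3 arrays were kept, 14568 in all. The model, in limma 3.58.1 (R 4.3.3), gave each group its own mean and used all 51 arrays (34 residual and 3.84 prior degrees of freedom). Benjamini-Hochberg adjustment ran over all probe sets within each comparison. The fit was run on simulated data with independent noise and known shifts, which checks the code and not the noise of these arrays. The gene rule, lists and comparisons were chosen with earlier results of these data known. Of the lists written, those of NAC genes by role hold no named probe set other than NAC014. Levels on every array were to be given for called members, and as none was called they are given for the only member.

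Arrays with the same replicate number correlated in their residuals at 0.0785 on average and those with different numbers at -0.0393. The second average follows largely from the first, because residuals were taken from the mean of each group of 3. Every pair passed 0.1 in 2 of 26 comparisons, the ein2 response at 2 h of Pep2 and the ein2 baseline, and in the added WT comparison of 10 h with 2 h of elf18, where the pairing comes from these correlations only. The rule for genes like NAC014 and the 10 h against 2 h comparisons were added after values were seen. Plots used matplotlib 3.10.9 (Python 3.11.15).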

Additional observations from a re-analysis of the deposited data

Results flagged for a closer look

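The response of NAC014 at 2 h of Pep2 differed between pepr1 pepr2 and WT by 0.6593 on the log2 scale (SE 0.242, adjusted p = 0.0233 in limma), the only one of 8 interactions to pass. The treated levels were 6.57, 6.55 and 6.47 in pepr1 pepr2, against a 0 h mean of 6.44 ± 0.19. In WT they were 5.43, 5.65 and 5.83, against a 0 h mean of 6.21 ± 0.15. Over the alternatives the adjusted p ran from 0.0136 to 0.0729. Its cause was not tested.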

How the results depend on the processing

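NAC014 was called at 2-fold in none of 26 planned and 5 added comparisons under an intensity trend, no low-value filter, median centring, quantile normalisation, the replicate block, a fit of only the groups compared, or leaving out any array. The trend, the filter, the block and the fit of only the groups compared leave a log2 difference unchanged. As the largest was 0.82, below 2-fold, these settings could not produce a call. Without a fold minimum the count became 1 in 10 comparisons, the 7 planned and 3 added ones with an adjusted p under 0.05. A filter at log2 7 could not be run, since no array reaches it, and NAC014 has 1 probe set, so no mean over probe sets was taken. The bak1 difference at 2 h of Pep2, -0.408, did not pass without a low-value filter (adjusted p = 0.0642) or in a fit of only its groups (adjusted p = 0.0709), and WT at 10 h against 2 h of elf18, -0.3061, passed in such a fit (adjusted p = 0.0305). The bak1 baseline reversed to 0.002618 under quantile normalisation. With the replicate block no call changed, and the pepr1 pepr2 interaction at 2 h of Pep2 was 0.6593 (adjusted p = 0.0193).

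Leaving out each array moved some differences across the threshold or through 0, and the cause was not tested. The ranges were -0.5767 to -0.4252 for WT at 10 h of elf18, -0.4806 to -0.0537 for ein2 at 2 h of Pep2, -0.5125 to -0.07256 for efr at 10 h of elf18, -0.001142 to 0.1864 for pepr1 pepr2 at 2 h of Pep2, and -0.5428 to -0.3342 and 0.3043 to 0.4896 for bak1 at 2 h and 10 h of Pep2. For interactions they were -0.03547 to 0.1738 for ein2 at 2 h of elf18, -0.01083 to 0.4291 for efr and 0.5547 to 0.7573 for pepr1 pepr2 at 2 h. For baselines they were -0.05858 to 0.1507 for ein2 and -0.08162 to 0.105 for bak1. Other differences that did not pass kept their sign and moved in size, such as 0.09023 to 0.5171 for the ein2 interaction at 2 h of Pep2, 0.02808 to 0.2591 and 0.02721 to 0.2617 for the bak1 interactions at 2 h and 10 h, -0.2311 to -0.02177 for ein2 at 2 h of elf18, -0.22 to -0.03242 for pepr1 pepr2 at 10 h of Pep2, and 0.1541 to 0.3886 for WT at 10 h of Pep2.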

Other observations

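The genes beside NAC014 in the RefSeq order of TAIR10.1 resembled it in some comparisons and not in others. Of 2 neighbours on either side, AT1G33050 and AT1G33055 were measured, and they were chosen after the values of NAC014 were seen. AT1G33055, the next gene on one side, fell at both times of both peptides in WT, by changes of -3.64 and -3.28 at 2 h and 10 h of elf18 and -4.05 and -2.83 at 2 h and 10 h of Pep2. It also fell in pepr1 pepr2 at 2 h of Pep2, to 4.38 ± 0.18 (SD, n = 3) against 9.53 ± 0.24 at 0 h, where NAC014 stood at 6.53 ± 0.05 and 6.44 ± 0.19. In efr AT1G33055 stood at 4.83 ± 0.37 at 10 h of elf18, against 8.21 ± 0.08 at 0 h. Between 2 h and 10 h of Pep2 it rose by 1.21 in WT and 1.48 in bak1. These rises started from 4.55 ± 0.38 and 4.52 ± 0.18, below the log2 5 of the filter. In pepr1 pepr2 it differed by 0.17 (adjusted p = 0.669). NAC014 differed by 0.82, 0.82 and -0.22 in WT, bak1 and pepr1 pepr2. AT1G33050 was called in no WT response. In pepr1 pepr2 at 2 h of Pep2 it was called lower, where 3.53% of probe sets were called. It stood there at 7.20 ± 0.11, against 8.34 ± 0.38 at 0 h. In bak1 it stood at 7.70 ± 0.28 at 2 h and 8.84 ± 0.18 at 10 h of Pep2. With Pep2 in WT it differed by -0.45 at 2 h (adjusted p = 0.0207), by 0.03 at 10 h and by 0.48 between the times (adjusted p = 0.0155), and with elf18 by 0.49 at 10 h, where NAC014 differed by -0.50. In ein2 its response was lower than in WT by differences of -1.11 (adjusted p = 0.00627) at 2 h and -1.09 (adjusted p = 0.00228) at 10 h of elf18, both called.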
